A study of Mus musculus with 8 samples.

Results

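Long noncoding RNAs that act in the nucleus or regulate other genes were followed in hepatocytes of mice with and without the cannabinoid 1 receptor. The 10 genes were Neat1, Malat1, Lncpint, Gas5, Meg3, H19, Snhg1, Miat, Kcnq1ot1 and the telomerase RNA Terc, and every non-control probe whose accession is listed under one of them was taken. This gave 12 of the 55681 probes of the array, for 8 of the 10 genes. No probe matched Gas5 or Miat through the RefSeq table, so neither gene has a value. Neat1 and Lncpint were chosen by their signal in these arrays, being among the largest falls in the knockout, so their differences between genotypes are a description and carry no test. No measured value is given as the reason for the other genes, although the whole list was drawn up with results of these arrays in view.

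Several of these RNAs work inside the nucleus. Neat1 is the scaffold around which paraspeckles form, bodies that hold RNA-binding proteins and edited transcripts, while Malat1 gathers in the neighbouring nuclear speckles with the SR splicing factors. Lncpint is induced by p53 and binds the Polycomb complex PRC2. H19, Kcnq1ot1 and Meg3 are imprinted: H19 and Meg3 are read from the maternal and Kcnq1ot1 from the paternal chromosome, and in the mouse liver H19 and Meg3 are known to be shut off after birth. Gas5 and Snhg1 carry small nucleolar RNAs in their introns, and their spliced transcripts are degraded by nonsense-mediated decay. Terc is the template of telomerase, and Miat is found in nuclear bodies of neurons.

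Total RNA of isolated hepatocytes came from 4 hCNR1+/+ mice (labelled genotype hCNR1_WT, strain CNRO) and 4 hCNR1-/- mice (labelled hCNR1_cKO, strain CNRO Alb-Cre), all male, on a standard diet and 12 to 14 weeks old. The knockout line was bred from floxed Cnr1 mice and a Cre recombinase driven by the albumin promoter, which is active in hepatocytes, so other cells of the liver keep the gene. As the labels give Alb-Cre to the knockout strain only, the transgene and the loss of the receptor cannot be told apart. Each mouse had 1 array, labelled with the dye Cy3, and all arrays lay on 1 slide with a row for each genotype, and any effect of the row cannot be told apart from that of genotype.

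Spot intensities were put on the log2 scale relative to each array's 75th percentile. A value of 0 is therefore a spot as bright as that percentile, and every log2 signal here is on this scale. The percentile itself ran from 62 to 139 in hCNR1+/+ and from 29.3 to 124 in hCNR1-/- arrays, with replicate 4 the dimmest of both genotypes. The single probe of Cnr1, the deleted gene, was well above background on 0 of 4 arrays of either genotype and so says nothing about the labels. All 15 hepatocyte marker genes looked up were well above background on every array. The brightness of a probe depends on its sequence, so levels are compared between arrays and not between probes.

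Promoter sequences of 7 of the genes are listed by RefSeq (build GRCm38.p6). Those of Malat1, Lncpint and Kcnq1ot1 are shown because these are the genes with such an entry whose mean signal was lower by over 1 on the log2 scale in hCNR1-/- hepatocytes at 1 of their probes. Each window runs from 250 bases before to 50 bases after the annotated start, 5′ to 3′ on the strand of the gene. Capitals mark TGACG (the core of the cAMP response element) and CCAAT, searched on both strands, so that CGTCA and ATTGG are the same motifs read backwards.
Malat1, minus strand of chr19:5802623-5802922: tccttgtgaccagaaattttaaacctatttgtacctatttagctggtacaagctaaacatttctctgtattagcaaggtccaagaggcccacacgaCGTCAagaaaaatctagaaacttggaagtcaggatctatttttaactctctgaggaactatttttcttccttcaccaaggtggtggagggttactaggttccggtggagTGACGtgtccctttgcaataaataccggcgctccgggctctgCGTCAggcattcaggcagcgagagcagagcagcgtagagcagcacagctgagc
Lncpint, minus strand of chr6:31218425-31218724: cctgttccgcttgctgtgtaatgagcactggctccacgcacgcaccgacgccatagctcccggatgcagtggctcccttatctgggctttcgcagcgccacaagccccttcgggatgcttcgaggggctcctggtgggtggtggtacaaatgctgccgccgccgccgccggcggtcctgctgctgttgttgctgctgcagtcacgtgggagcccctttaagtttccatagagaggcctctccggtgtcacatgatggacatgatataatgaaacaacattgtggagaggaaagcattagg
Kcnq1ot1, minus strand of chr7:143296498-143296797: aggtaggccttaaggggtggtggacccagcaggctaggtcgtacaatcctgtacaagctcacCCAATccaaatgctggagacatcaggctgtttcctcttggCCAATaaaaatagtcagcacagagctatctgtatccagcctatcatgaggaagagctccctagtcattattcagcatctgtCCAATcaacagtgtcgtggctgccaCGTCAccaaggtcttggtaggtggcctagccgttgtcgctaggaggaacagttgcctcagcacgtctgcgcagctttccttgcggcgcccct

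The Malat1 window held TGACG 3 times and CCAAT 0 times. The Kcnq1ot1 window held TGACG once and CCAAT 3 times. In the Lncpint window neither motif was found. Of all 32851 promoter windows of this length, 20.8% held TGACG and 37.4% held CCAAT. The GC box GGGCGG, the TATA box TATAAA and the p53 half-site were also searched on both strands, and none of the 3 windows held one, while 35.7%, 13.6% and 8.36% of all windows did. These are matches of letters, not sites shown to be bound.

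Of the 12 probes, 7 entered the test, as they cleared the background on 4 or more of the 8 arrays, and 5 were not well above background on any array. The dim probes were all 3 of Meg3, the 1 of H19 and 1 of the 2 of Kcnq1ot1. Their unscaled intensities ran from 3.09 to 9.85 over all arrays and both genotypes. No fold change is given for Meg3 or H19, and at this signal a difference in either RNA was not detectable.

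**Figure D1:**
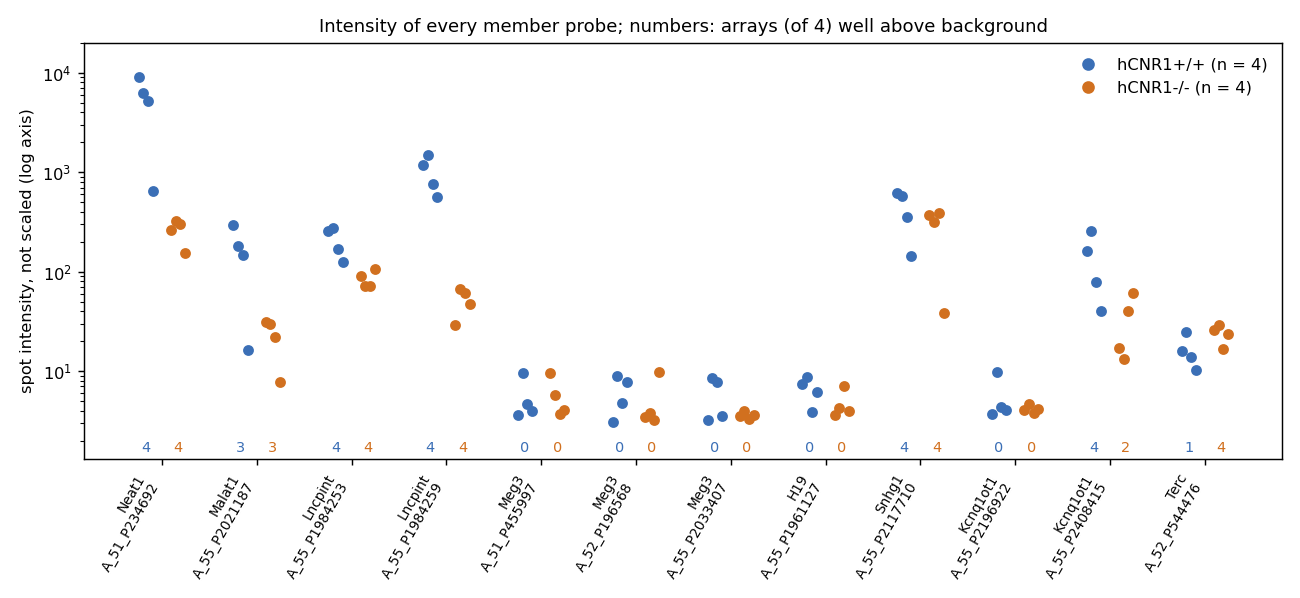
Unscaled spot intensity (vertical log axis) of each of the 12 probes on the 4 hCNR1+/+ and 4 hCNR1-/- arrays, each point 1 array, with the number of arrays well above background under each group. The 3 Meg3 probes, the H19 probe and 1 Kcnq1ot1 probe lie between 3.09 and 9.85 on every array, and heights are to be compared within a probe only.

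Neat1, the paraspeckle scaffold, was measured by 1 probe that was well above background on all 8 arrays. In the order of replicates 1 to 4, its intensity before scaling was 9080, 6280, 5180 and 648 for hCNR1+/+ mice, and 264, 324, 300 and 152 for hCNR1-/- mice. The same order is used for every RNA that follows. Relative to the 75th percentile, the log2 signal was 6.10, 5.49, 5.56 and 3.39 for hCNR1+/+ against 1.09, 2.03, 1.67 and 2.38 in hCNR1-/- mice. Every hCNR1+/+ array was brighter than every hCNR1-/- array on both scales, although hCNR1+/+ replicate 4 lay well under the other hCNR1+/+ mice. On the scaled signal, 6.60% of all tested probes separated in this direction. The log2 fold change was −3.34 (standard error, SE, 0.55), a signal 10.1-fold higher in hCNR1+/+ hepatocytes, and without hCNR1+/+ replicate 4 it was −3.92.

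Lncpint, the p53-induced noncoding RNA, had 2 probes, listed under different transcripts, and they did not give the same picture. Probe A_55_P1984259, listed under transcript NR_110469, had a log2 signal of 3.16, 3.41, 2.79 and 3.19 for hCNR1+/+ against −2.09, −0.27, −0.63 and 0.71 in hCNR1-/- mice. The hCNR1+/+ arrays lay close together and far above all 4 hCNR1-/- arrays, with a log2 fold change of −3.71 (standard error 0.50), or 13.1-fold. Probe A_55_P1984253, listed under transcript NR_110471, read 0.94, 0.96, 0.62 and 1.01 for hCNR1+/+ against −0.47, −0.16, −0.39 and 1.87 in hCNR1-/- mice. Here 3 hCNR1-/- arrays were below all hCNR1+/+ arrays and replicate 4 was above them, so that the groups overlapped. Its log2 fold change was −0.67 (standard error 0.48), and −1.22 without hCNR1-/- replicate 4. Before scaling, that replicate had an intensity of 107 at this probe. The other hCNR1-/- mice had 71.1 to 89.5 and the hCNR1+/+ mice 124 to 272. On that scale the groups did not overlap, but the median log2 fold change of all tested probes was −0.45 without scaling. The share of all probes that separate before scaling was not counted.

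Across all 19985 probes tested with limma, 3.46% had a lower and 4.45% a higher signal in the knockout at a Benjamini-Hochberg adjusted p below 0.05. Of all the calls, 43.8% were lower ones, against 97.3% without scaling between arrays, 76.2% with the z-scores the authors deposited and 54.9% with quantile normalization, and against 18.8% over probes well above background on all 8 arrays, 28.5% with array weights and 30.7% without hCNR1-/- replicate 4. With Neat1 and Lncpint set aside, 4 member probes of 4 genes were tested, and limma called 0 lower and 0 higher. At an unadjusted p below 0.05 they were 1 lower (Malat1) and 1 higher (Terc, most of whose hCNR1+/+ values were at background), where 8.50% and 14.7% of all probes had such a p. The median log2 fold change of all tested probes was 0.11.

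Malat1, the speckle RNA, lies next to Neat1 on chromosome 19. Its only probe was dim, well above background on 3 of 4 arrays of each genotype. The log2 signal was 1.14, 0.37, 0.40 and −1.94 for hCNR1+/+ against −1.98, −1.42, −2.11 and −1.90 in hCNR1-/- mice. Replicates 1 to 3 of hCNR1+/+ stood above all hCNR1-/- mice, while replicate 4, the mouse that was also lowest for Neat1, fell among them. The log2 fold change was −1.85 (SE 0.57, adjusted p = 0.0830 from limma), with a 95% interval from −3.13 to −0.57. The exact two-sided permutation test gave p = 0.0857, where the smallest value that 4 against 4 arrays allow is 0.0286. The adjusted p turned on 1 mouse: without hCNR1+/+ replicate 4 the log2 fold change was −2.49 (adjusted p = 0.00380 from limma), and with any other array left out the adjusted p stayed above 0.05.

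Kcnq1ot1, the RNA that silences its imprinted domain in cis, had 1 probe in range, flagged as well above background in 4 of 4 hCNR1+/+ but only 2 of 4 hCNR1-/- mice, so that it passed the filter through the genotype with the higher mean. Its log2 signal was 0.27, 0.89, −0.50 and −0.63 for hCNR1+/+ against −2.84, −2.60, −1.25 and 1.04 in hCNR1-/- mice. In hCNR1-/- replicates 1 to 3 the signal was below every hCNR1+/+ value and in replicate 4 above every one, although before scaling replicate 4, at an intensity of 60.3, lay within the 40.2 to 258 of the hCNR1+/+ mice. The log2 fold change of −1.42 (SE 0.78, adjusted p = 0.309 from limma) was within the spread, and its 95% interval ran from −3.17 to 0.33. Without hCNR1-/- replicate 4 it was −2.24 (adjusted p = 0.0194 from limma). As only 2 of 4 hCNR1-/- mice were well above background at this probe, that value is given as a description. The other Kcnq1ot1 probe, not well above background on any array, cannot be set against it.

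Snhg1, a snoRNA host gene, was well above background on all 8 arrays. Its log2 signal was 2.21, 2.06, 1.68 and 1.20 for hCNR1+/+ against 1.57, 1.99, 2.05 and 0.38 in hCNR1-/- mice, with the groups overlapping and replicate 4 lowest in both. The log2 fold change was −0.29 (SE 0.40, adjusted p = 0.693 from limma), with a 95% interval from −1.18 to 0.60. Without hCNR1-/- replicate 4 its sign turned, to 0.08.

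Terc was the one tested RNA of the list with a higher mean in the knockout. The log2 signal of its probe was −3.07, −2.50, −2.99 and −2.60 for hCNR1+/+ against −2.25, −1.45, −2.48 and −0.30 in hCNR1-/- mice, so every hCNR1-/- value was above every hCNR1+/+ value, as was the case for 12.6% of all tested probes. The probe was near the background, and well above it in 1 of 4 hCNR1+/+ mice but all 4 hCNR1-/- mice. It thus passed the filter through the genotype in which it was higher, and 3 of its 4 hCNR1+/+ values lie at background. The measured log2 difference was 1.17 (SE 0.44) and did not pass the test (adjusted p = 0.148 from limma). Before scaling, the intensities overlapped, at 15.8, 24.7, 13.9 and 10.2 for hCNR1+/+ against 26.1, 29.0, 16.8 and 23.8 in hCNR1-/- mice, and the difference without scaling was 0.61.

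**Figure D2:**
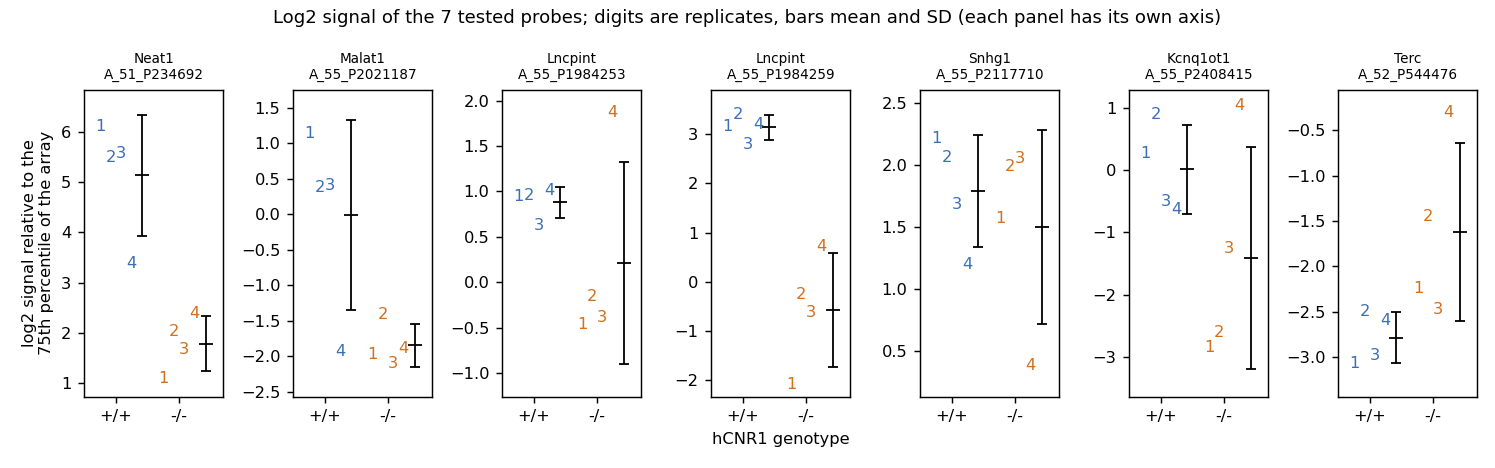
Log2 signal relative to the 75th percentile of the array (vertical axis, a scale for each panel) for the 7 tested probes in hCNR1+/+ (+/+) and hCNR1-/- (-/-) mice; digits are replicate numbers and bars give the mean and SD of 4 arrays. Replicate 4 of hCNR1+/+ stands low for Neat1 and Malat1, and replicate 4 of hCNR1-/- stands high for both Lncpint probes, Kcnq1ot1 and Terc.

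Single mice thus weighed on most of these RNAs. On the scaled signal, replicate 4 was the lowest of the hCNR1+/+ mice for Neat1, Malat1, Snhg1 and Kcnq1ot1, and the highest of the hCNR1-/- mice for Neat1, Lncpint, Kcnq1ot1 and Terc. Before scaling, hCNR1-/- replicate 4 was the lowest of its genotype for Neat1 (152 against 264 to 324). It was still the highest for Kcnq1ot1 and Lncpint probe A_55_P1984253, but not for Terc or the other Lncpint probe. Replicate 4 was the dimmest array of each genotype, and the part of brightness in these values was not tested.

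**Figure D3:**
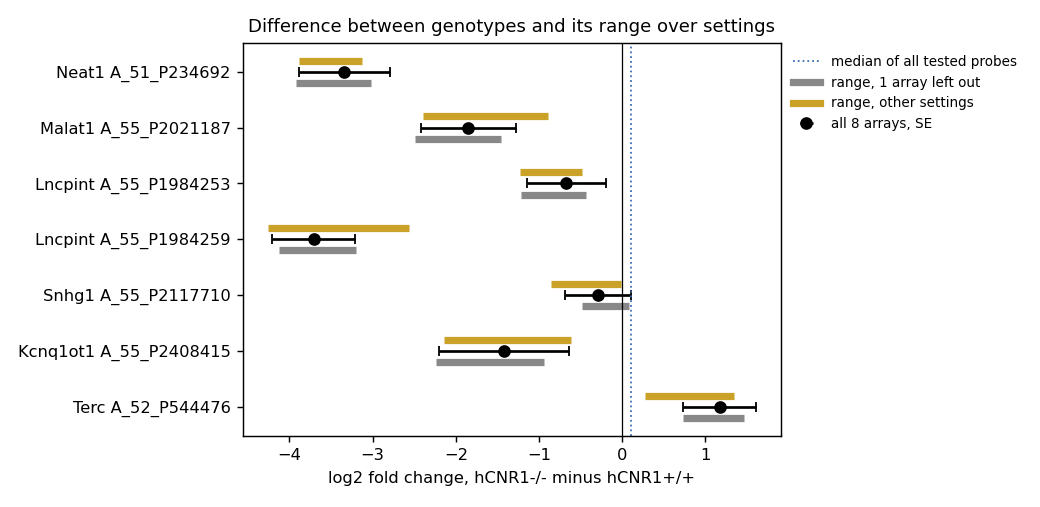
Log2 fold change, hCNR1-/- minus hCNR1+/+ (horizontal axis), of the 7 tested probes, with points and bars for the value and standard error over 8 arrays, grey bars for the range with 1 array left out and yellow bars for the range over other scalings, background correction, filters and variance models. Neat1 runs from −3.92 to −3.02 with 1 array left out, and Snhg1 alone crosses 0.

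Markers of other liver cells were read as well, since these RNAs are not particular to hepatocytes. Of 12 Kupffer cell markers 10 were tested, all 10 with a negative log2 fold change and a median of −0.98. The share with a negative log2 fold change was 42.34% over all tested probes. Marco, Ctss and Vsig4 fell at an adjusted p below 0.05 (log2 fold changes −2.41, −1.89 and −1.77 from limma). Such a call was made for 1.77% of all named genes tested. Ctss and Vsig4 were well above background on 4 of 4 hCNR1+/+ but 2 of 4 hCNR1-/- arrays. They thus passed the filter through the genotype in which they were higher. The summed signal of the 10 tested markers, in units of the 75th percentile, was 85.6 to 169 in hCNR1+/+ and 51.5 to 70.6 in hCNR1-/- mice. This sum is weighted to the brightest gene, Cd68, with a mean log2 signal of 6.04 in hCNR1+/+ and 5.21 in hCNR1-/- mice. Cd68 was itself not called (adjusted p = 0.0615 from limma). Adgre1 and Timd4, markers of the same cells, were too dim to be tested. The lower count of 3 was 2 without hCNR1+/+ replicate 3 or 4 and 4 without hCNR1-/- replicate 4. Sinusoidal endothelial (8 tested), stellate cell (2), lymphocyte (3), neutrophil (1) and cholangiocyte (2) markers had 0 called in either direction, with 1 lower endothelial, 1 lower neutrophil and 1 higher lymphocyte gene at an unadjusted p below 0.05. Without hCNR1-/- replicate 4, 1 endothelial, 1 stellate cell and 1 neutrophil marker were lower and 1 cholangiocyte marker higher. In that fit 1043 of all 19985 probes were lower and 2355 higher. The part of Kupffer cell RNA in the values of Neat1, Malat1 and the others was not tested, and in such preparations fewer cells of a type and less RNA per cell cannot be told apart. Among 15 hepatocyte markers 1 was lower, Pck1, the gluconeogenic enzyme (log2 fold change −1.81, adjusted p = 0.0376 from limma), and 1 higher, Apob, the apolipoprotein of VLDL (1.63, adjusted p = 0.0333 from limma), and without hCNR1+/+ replicate 3 or 4 neither passed. Of 12 immediate-early genes, which respond to cell isolation, limma called 0, with 0 lower and 1 higher at an unadjusted p below 0.05. At such a p, 8.50% of all tested probes were lower and 14.7% higher.

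The genes whose signal ran most like that of Neat1 were found by Pearson's correlation over the 8 arrays with the brightest probe of each gene, over 8339 genes that every array detected. They were Zfp687 (r = 0.991), Noc3l (r = 0.955), Ccnl2 (r = 0.940), Tomm70a (r = 0.934) and Porcn (r = 0.930), and their log2 fold changes ran from −1.36 to −0.59. As Neat1 was chosen for its fall, the negative sign of these genes was built into the search. When the mean of each genotype was subtracted first, the 5 were Def8 (r = 0.968), Mov10 (r = 0.965), Zfp687 (r = 0.962), Map4k3 (r = 0.955) and Smc5 (r = 0.949). In that order, the log2 fold changes of these 5 were 0.21, 0.48, −0.80, 0.49 and 1.14. Zfp687 was in both sets. The low value of hCNR1+/+ replicate 4 enters every one of these correlations, which are given as a description.

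Genes that work with these RNAs, or lie near them, were read at their brightest probe. The 9 lists held 183 genes, of which 138 were tested; 3 were lower and 9 higher at an adjusted p below 0.05. That is 2.17% and 6.52%, against 1.77% and 3.97% of all 11072 named genes tested, and the median log2 fold change was 0.19, against 0.08 for all named genes. Among the partners of Neat1, 25 of 27 paraspeckle proteins were tested, and 0 were lower and 1 higher. It was Hnrnpul1, an hnRNP-like protein, which rose from 0.98 ± 0.16 to 1.99 ± 0.42 (SD, n = 4 each; log2 fold change 1.01, SE 0.25, adjusted p = 0.0395 from limma). The median of the list was 0.28. The count for this list was 7 higher without hCNR1-/- replicate 4 and 0 without hCNR1+/+ replicate 3 or 4. Without hCNR1-/- replicate 4, 2355 of all 19985 probes were called higher, against 889 with all arrays.

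Of 22 proteins of nuclear speckles, where Malat1 gathers, 21 were tested, with 1 lower and 3 higher. The SR splicing factor Srsf5 fell from 4.58 ± 0.38 to 3.35 ± 0.45 (SD, n = 4 each; log2 fold change −1.23, adjusted p = 0.0346 from limma). The higher genes were Rbm25, an exon-choice factor, with a log2 fold change of 1.84 (adjusted p = 0.0302 from limma), Srsf11 with 1.24 (adjusted p = 0.00940 from limma) and Acin1, a component of the exon junction complex, with 1.06 (adjusted p = 0.0419 from limma). The median of the list was 0.13. Members of the list thus moved in both directions. Without scaling between arrays, which took the median of all probes to −0.45, the medians of the paraspeckle and speckle lists turned to −0.28 and −0.43. With quantile normalization they were 0.26 and −0.07. With the 75th percentile taken over probes well above background on all arrays they were 0.12 and −0.03.

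For RNase P, RNase Z and the nuclear exosome, which cut the Malat1 3′ end and degrade nuclear RNA, 22 of 24 genes were tested and limma called 0 in either direction, with 1 lower and 6 higher at an unadjusted p below 0.05. Over all tested probes, 8.50% were lower and 14.7% higher at such a p. The median was 0.30, and without hCNR1-/- replicate 4 the list had 1 lower and 5 higher genes. In that fit 1043 of all 19985 probes were lower and 2355 higher. The difference largest in size, which ran against the median and had an unadjusted p of 0.0585 in limma, was that of Rpp40, a protein of RNase P, at −1.65 ± 0.34 in hCNR1+/+ and −2.74 ± 1.15 in hCNR1-/- hepatocytes (SD, n = 4 each; log2 fold change −1.09, adjusted p = 0.235 from limma). Of 15 genes of nonsense-mediated decay, the route that degrades Gas5 and Snhg1 transcripts, 14 were tested, with 0 lower and 2 higher. Smg5 rose from 5.01 ± 0.14 to 5.86 ± 0.11 (SD, n = 4 each; log2 fold change 0.85, adjusted p = 0.0254 from limma) and Smg6, the endonuclease of the pathway, from 3.11 ± 0.22 to 3.92 ± 0.18 (SD, n = 4 each; log2 fold change 0.80, adjusted p = 0.0456 from limma). Without hCNR1+/+ replicate 3 neither of the 2 lists of decay and speckle genes kept its count: nonsense-mediated decay had 0 higher genes and speckle proteins 0 lower and 1 higher.

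Other snoRNA host genes were read beside Snhg1. Of 18, 10 had a probe and were tested, and limma called 0 lower and 0 higher, with 4 lower and 0 higher at an unadjusted p below 0.05. Over all tested probes, 8.50% were lower and 14.7% higher at such a p. The largest difference was that of Dancr, at 1.48 ± 0.67 in hCNR1+/+ and −0.12 ± 0.85 in hCNR1-/- hepatocytes (SD, n = 4 each; log2 fold change −1.60, adjusted p = 0.0676 from limma). The median of the 10 was −0.20, against 0.02 without hCNR1-/- replicate 4 (1 lower and 1 higher gene) and −0.55 without hCNR1+/+ replicate 4 (1 lower and 0 higher). Of 30 further regulatory noncoding genes 10 were tested, with 1 lower and 1 higher. Mir17hg, which carries a cluster of growth-promoting microRNAs, read −0.34 ± 1.46 in hCNR1+/+ and −2.72 ± 0.35 in hCNR1-/- hepatocytes (SD, n = 4 each). Its log2 fold change was −2.38 (adjusted p = 0.0465 from limma), though its groups overlapped. The probe was dim: among hCNR1-/- mice only 2 gave a signal that cleared the background, and among hCNR1+/+ mice 3 did. The hCNR1-/- mean thus rests in part on values near background, and the size of the fall is uncertain. Tug1 was not well above background on any hCNR1+/+ array and was on all 4 hCNR1-/- arrays, at least 3.82-fold higher there (adjusted p = 0.0343 from limma). It entered the test only through the arrays on which it was high, and it is 1 of the 9 higher genes counted above. For that bound, the hCNR1+/+ level was set to the lowest signal among probes well above background on each array, or the probe's own where higher. Without hCNR1+/+ replicate 3 neither Mir17hg nor Tug1 passed. Among all 213 genes that the annotation calls long noncoding and that were tested, Neat1 and Lncpint left out, 3.76% were lower and 2.35% higher, a count added after the data were seen. These are 8 and 5 genes, and the shares of all named genes were 1.77% and 3.97%. The median log2 fold change of the 213 was 0.03, against 0.08 for all named genes.

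The telomerase partners of Terc and the shelterin proteins that cap telomeres gave 16 tested genes of 19, with 0 lower and 1 higher. Nhp2, one of the H/ACA proteins that bind Terc, rose from 7.17 ± 0.23 to 8.18 ± 0.41 (SD, n = 4 each; log2 fold change 1.01, adjusted p = 0.0418 from limma). This list had 0 higher genes without hCNR1+/+ replicate 3 or 4 and 2 without hCNR1-/- replicate 4. Tert, the catalytic subunit, was too dim to be tested. Of the PRC2 genes 10 of 11 were tested, with 0 lower and 1 higher: Aebp2, an accessory subunit, at 0.97 ± 0.17 in hCNR1+/+ and 1.92 ± 0.31 in hCNR1-/- hepatocytes (SD, n = 4 each; log2 fold change 0.95, adjusted p = 0.0328 from limma). Without hCNR1+/+ replicate 3 Aebp2 did not pass.

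In the imprinted domains of H19, Kcnq1ot1 and Meg3, 10 of 17 genes were tested, with 1 lower and 0 higher. Mirg, a noncoding RNA of the Meg3 domain, fell from −0.55 ± 0.44 to −1.63 ± 0.35 (SD, n = 4 each; log2 fold change −1.08, adjusted p = 0.0469 from limma), without overlap between the groups. It was well above background on all 4 hCNR1+/+ arrays and on 3 of 4 hCNR1-/- arrays. Without hCNR1+/+ replicate 3 or 4 it did not pass, and without hCNR1-/- replicate 4 the list had 1 lower and 1 higher gene. Igf2, Kcnq1, Cdkn1c, Dlk1 and Rtl1 were among the 7 that could not be tested. Of the 3 nearest annotated genes on each side of every member and those overlapping it, 16 were tested, and limma called 0 lower and 0 higher, with 0 lower and 5 higher at an unadjusted p below 0.05. Over all tested probes, 8.50% were lower and 14.7% higher at such a p. Around Neat1 and Malat1, the log2 fold changes were 0.60 for Frmd8, 0.59 for Znrd2, 0.55 for Ltbp3 and 0.19 for Slc25a45, with adjusted p from 0.0962 to 0.743 in limma. At H19 that of Mrpl23 was 0.67, and at Snhg1 that of Slc3a2 was 0.46, neither past the adjusted threshold (0.0584 and 0.201 from limma). The other tested neighbours of Snhg1 were Wdr74 (0.17), 1700092M07Rik (0.53) and Stx5a (0.21), and that of Kcnq1ot1 was Tssc4 (0.25), with adjusted p from 0.233 to 0.696 in limma. Gas5 has no value of its own, but its neighbours Rc3h1 (1.54), Klhl20 (0.26), Serpinc1 (0.06) and Cenpl (−0.53) had adjusted p from 0.104 to 0.911 in limma.

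**Figure D4:**
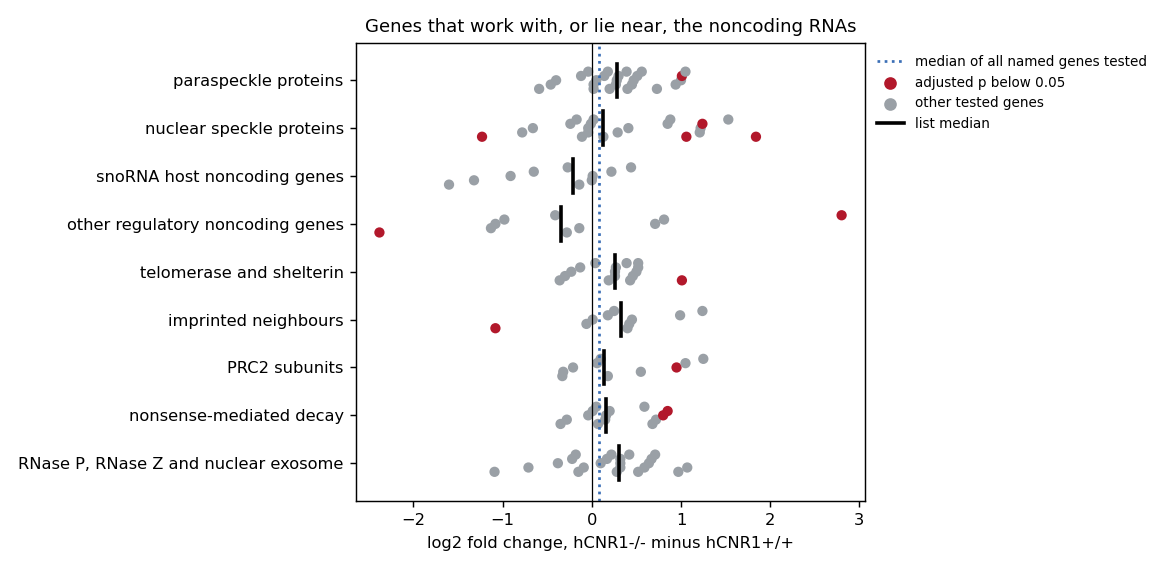
Log2 fold change, hCNR1-/- minus hCNR1+/+ (horizontal axis), of the tested genes of the 9 lists (rows), each point a gene at its brightest probe, red where the limma adjusted p was below 0.05, with the list median as a black bar. Of 138 genes 3 were lower and 9 higher, Mir17hg and Tug1 lying farthest out. The point of Tug1 is its measured difference, with hCNR1+/+ arrays at background. The probe of Mir17hg was dim, and only 2 hCNR1-/- arrays cleared the background for it.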

How the data were processed

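Hepatocyte RNA of 4 hCNR1+/+ and 4 hCNR1-/- mice was hybridised to 1-colour Agilent arrays, 1 per mouse. Per the file headers, the deposited intensity of each spot came from Feature Extraction (version 12.0.3.1), which corrects the background within the array and does not scale between arrays; the flags of each spot (another deposited column) say whether it was well above background. A further deposited column holds a score for every spot that differs by no more than 0.005 from a z-score of the array's log2 intensities. The design file names build mm9, so RefSeq coordinates (GRCm38.p6) served only for the promoters and for the order of genes.

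Groups came from the sample labels. Log2 intensities were scaled to the 75th percentile over 59305 non-control spots per array, outlier spots were dropped, and repeated spots of a probe were averaged. A probe was well above background where at least 50% of its spots were flagged so. Names came from RefSeq (GRCm38.p6) by unversioned accession: 28331 of 55681 probes were named, giving 21368 genes. The 19985 probes that were well above background on 4 or more of 8 arrays were tested with lmFit and eBayes of limma (version 3.58.1, R version 4.3.3), two-sided, with Benjamini-Hochberg adjustment over all of them. The labels say that each sample is a mouse of its genotype and no more; p-values measure the spread between these mice. Single probes also had an exact permutation test over 70 assignments. No array repeated another (highest correlation 0.9866), and 0 non-control spots were saturated. Precision is limited by the number of arrays.

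The members, the lists and the lookup rules were chosen with earlier results of these data known. Named genes were all members with every probe; of each list, up to the 4 largest changes with an adjusted p below 0.05, or the largest difference where none passed; the tested neighbours, of which some are not reported here; and the 5 genes most like Neat1 by either correlation. Alternatives were other scalings, the z-scores, normexp (offset 50, on the median signal, as used here in place of a mean), other filters, 1 probe per gene, a trended robust variance, array weights, a replicate block and each array left out. The labels do not say whether mice with the same replicate number were paired. Their deviations from the group means correlated at 0.21, −0.11, −0.02 and 0.10 over probes, which cannot decide it. Scan date and slide were the same for all arrays.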

Additional observations from a re-analysis of the deposited data

Results flagged for a closer look

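Each group of 4 arrays was searched for 1 array far from the rest, by the gap to its nearest neighbour over the range of the group, for the 7 tested probes, the 75th percentile and the share of spots well above background. Of 18 groups 2 passed Dixon's 95% critical value, where chance passes about 1 in 20. Both were groups of the Lncpint probe A_55_P1984253. In hCNR1-/- mice, replicate 4 had a log2 signal of 1.87 against −0.47 to −0.16 in the others (ratio 0.868). In hCNR1+/+ mice, replicate 3 had 0.62 against 0.94 to 1.01 (ratio 0.831).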

How the results depend on the processing

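The log2 fold changes of Neat1, Malat1, Kcnq1ot1, Terc and both Lncpint probes kept their sign in all alternatives where they were fitted. That of Snhg1 did so except without hCNR1-/- replicate 4, and ran from −0.48 to 0.08 with 1 array left out. With probes above background on all arrays Malat1, Kcnq1ot1 and Terc have no value, nor has Malat1 with probes above background on all arrays of a genotype. The probe of Lncpint under NR_110469 moved from −3.71 to −2.56 with normexp, which also took Malat1 from −1.85 to −0.89, Kcnq1ot1 from −1.42 to −0.62 and Terc from 1.17 to 0.27. Other scalings also ended list calls: hepatocyte markers had 0 lower and 0 higher without scaling and 2 and 0 with quantile normalization or the percentile over bright probes. Under these 3 scalings the telomerase, PRC2 and decay lists had 0 higher, and the imprinted list had 0 lower without scaling and with quantile normalization. Mir17hg's list had 0 lower and 0 higher without scaling and 0 and 1 with quantile normalization. Malat1 and Kcnq1ot1 also had adjusted p below 0.05 with array weights, at −2.24 and −2.14 (limma, adjusted p = 0.00237 and 0.00899), as did Terc at 0.84 (limma, adjusted p = 0.0451). Over all alternatives the adjusted p ran from 0.00237 to 0.338 for Malat1, 0.00899 to 0.853 for Kcnq1ot1 and 0.0451 to 0.770 for Terc. Member probes called, against 0 lower and 0 higher, were thus 2 and 1 with array weights, and 0 to 1 lower and 0 higher with 1 array left out. Array weights called 1538 lower and 3865 higher of all 19985 probes, against 692 and 889 without them.

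Of all probes, 692 were called lower and 889 higher. The higher count was 13 without scaling, 163 with median scaling, 163 with z-scores, 494 with quantile normalization, 350 with the 75th percentile over bright probes, 135 with normexp, 64 with no filter, 325 with 1 probe per gene, 3865 with array weights and 328 with the replicate block. The lower count was 191 with normexp, 300 with no filter, 178 with probes above background on all arrays, 144 with 1 probe per gene and 1538 with array weights. With 1 array left out, 437 to 1043 were lower and 211 to 2355 higher, the lowest without hCNR1-/- replicate 3 and hCNR1+/+ replicate 3 and the upper ends without hCNR1-/- replicate 4. The share of lower calls, 43.8%, was 74.5% with median scaling, 71.2% with the percentile over bright probes and 58.6% with normexp; without scaling the median of all probes was −0.45.

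Genes of the 9 lists, 3 lower and 9 higher, were 0 and 0 without scaling, with no filter and with normexp, 0 and 1 with median scaling, 1 and 2 with z-scores, 1 and 4 with quantile normalization, 6 and 1 with the percentile over bright probes, 1 and 5 with 1 probe per gene and 10 and 43 with array weights; 1 was lower with probes above background on all arrays, and 2 higher with the replicate block. With 1 array left out they were 0 to 5 and 1 to 26. The filters change how many probes are tested. The cause was not tested. The replicate block changed no call of a member probe (Malat1 −1.85, adjusted p = 0.0976 from limma). Dim signal limits Malat1, Terc, Kcnq1ot1, Meg3 and H19.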
